A study of Homo sapiens with 4 samples.

Results

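The S100 proteins are small EF-hand proteins, most of which bind calcium, and 10 of their genes were described here: S100A6, S100A4, S100A8, S100A9, S100A10, S100A11, S100A13, S100A14, S100A16 and S100P. They were chosen by symbol, as a family around S100A6, after S100A6 had been seen to differ between the lines, so the difference between the lines is given for them as a description and not as a test. All 10 were found among 60675 genes in the deposited tables. Of these, 7 had enough counts to enter the fit of 16538 genes. RNA was sequenced from MM134 cells, an estrogen receptor positive line of lobular breast cancer, in 4 libraries: HER2 WT 1 and 2, from the line with wild-type HER2, and HER2 L755S 1 and 2, from the line with the L755S form of this receptor tyrosine kinase. Every library came from cells kept for 7 days without estrogen, in phenol red free medium with 5% charcoal-stripped serum, so no library shows the genes in the presence of estrogen. The sources used here do not give how the receptor was introduced, whether a line is a single clone, or whether libraries 1 and 2 are separate cultures. The p-values below therefore cover the spread between libraries alone, and this spread may be technical. In such bulk RNA, more cells expressing a gene and more RNA per cell cannot be told apart.

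Most S100 proteins act as dimers that change shape when calcium binds and then attach to partner proteins. Inside the cell these partners include annexins, myosin and cytoskeletal adaptors, and some S100 proteins are also released and bind receptors such as that encoded by AGER. Many of the genes lie side by side at 1q21 on chromosome 1, within and beside a group of genes for epidermal differentiation. In the breast, luminal and basal cells express several of them, whereas S100A8 and S100A9 are best known from neutrophils and monocytes.

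The total expected count per library was between 27423247 and 31088422. Mitochondrial transcripts took from 4.03% to 13.5% of it, with both higher shares in the libraries numbered 2. All 9 luminal markers looked up, among them KRT8, KRT18 and EPCAM, were detected in every library, with a summed level of 6515 to 8977 TPM (a transcript level corrected for library size and transcript length). Of these, 3 overlapped between the lines (KRT8, KRT18 and SPDEF), 4 were higher in both HER2 L755S libraries by CPM (XBP1, EPCAM, GATA3 and FOXA1) and 2 were lower (ESR1 and KRT19). In edgeR 0 passed the test at an adjusted p under 0.05, with 2 at an unadjusted p under 0.05. Of all 16538 tested genes, 36.2% did not overlap, 1.69% passed and 1742 had an unadjusted p under 0.05. ESR1, which encodes the estrogen receptor, stood at 38.5 (HER2 WT 1), 59.9 (HER2 WT 2), 14.1 (HER2 L755S 1) and 20.4 (HER2 L755S 2) TPM (log2 -1.29, SE 0.38, edgeR adjusted p = 0.15), and its part in the S100 values was not tested. Of 10 myeloid markers, 3 to 9 were at 0, and their sum was 0.860 and 1.68 TPM in HER2 WT and 0.540 and 1.62 TPM in HER2 L755S libraries. Of 11 keratinocyte markers, 6 to 8 were at 0, and nearly all of their sum, 8.49 and 13.3 TPM in HER2 WT and 7.87 and 11.7 TPM in HER2 L755S libraries, was KRT10. Of 8 stromal and endothelial markers, 2 to 4 were at 0, and nearly all of the sum of 14.6 to 37.7 TPM was COL1A1. PTPRC had at most 1 count in any library. The 1 myeloid marker with enough counts to test, CSF3R, was counted 12 (HER2 WT 1), 5 (HER2 WT 2), 45 (HER2 L755S 1) and 12 (HER2 L755S 2) times. It did not pass (log2 1.87, SE 0.77, edgeR adjusted p = 0.39), and its part in the S100 values was not tested. The HER2 WT libraries alone would not have brought CSF3R through the count filter, so nothing is read from these values of CSF3R.

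The sequences upstream of S100A6, S100A4 and S100A10 are shown because these genes differed most between the lines among the tested members with at least 10 TPM in both libraries of a line, the first pair upward and the last downward. Each runs 5′ to 3′ over the 250 bases before the gene's start in RefSeq (GRCh38.p14), on the minus strand of chromosome 1. The gene spans and distances given below are from GENCODE. For these genes the GENCODE spans begin further upstream, so that the windows lie inside them. Capitals mark matches on either strand to GGGCGG, a motif bound by SP1, and to TATAAA, a core promoter element.
S100A6, chr1:153535992-153536241: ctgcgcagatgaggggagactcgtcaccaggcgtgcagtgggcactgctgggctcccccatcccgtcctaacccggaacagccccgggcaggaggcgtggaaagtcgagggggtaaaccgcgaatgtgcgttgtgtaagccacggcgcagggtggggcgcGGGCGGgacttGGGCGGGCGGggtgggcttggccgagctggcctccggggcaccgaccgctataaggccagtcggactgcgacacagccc
S100A4, chr1:153545807-153546056: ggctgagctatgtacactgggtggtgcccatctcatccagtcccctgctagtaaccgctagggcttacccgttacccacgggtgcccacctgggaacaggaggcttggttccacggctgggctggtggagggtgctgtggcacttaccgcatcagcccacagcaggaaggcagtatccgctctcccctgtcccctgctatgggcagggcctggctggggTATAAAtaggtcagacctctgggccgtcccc
S100A10, chr1:151993860-151994109: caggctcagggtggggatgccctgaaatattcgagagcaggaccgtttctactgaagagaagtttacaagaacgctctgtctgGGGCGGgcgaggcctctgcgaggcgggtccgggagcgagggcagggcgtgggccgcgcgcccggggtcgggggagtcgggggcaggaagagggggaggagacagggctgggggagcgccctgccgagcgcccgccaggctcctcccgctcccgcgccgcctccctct

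All 10 genes had an entry in the RefSeq table. The window of S100A6 held GGGCGG at 3 places, of which a pair overlap by 2 bases, and no TATAAA, and 70% of its bases were G or C. That of S100A4 held TATAAA from 31 to 26 bases before the RefSeq start and no GGGCGG. The window of S100A10 held GGGCGG once. Of 35116 human promoter windows of the same length, 42.6% held GGGCGG and 10.7% held TATAAA. The AP-1 motif TGANTCA (6.57% of windows) and the E-box CACGTG (6.34%) were in none of the 10 windows, and CCAAT (32.0%) was only in that of S100A8. The windows of S100A14 and S100A16 held none of these motifs. The genes that were higher in HER2 L755S cells thus had no motif of this set in common in these windows, which depend on the start taken.

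S100A6 encodes calcyclin, which binds the adaptor encoded by CACYBP. It lies on chromosome 1 (ENSG00000197956, GRCh38 153534599 to 153536244, minus strand). Its level was 317 and 214 TPM in HER2 WT 1 and 2, and 1498 and 1033 TPM in HER2 L755S 1 and 2. Both HER2 L755S libraries were well above both HER2 WT libraries, and the lines did not overlap. As CPM (counts scaled to the library's total times its TMM factor) it averaged 90.7 ± 22.7 in HER2 WT and 483 ± 43.8 in HER2 L755S cells (SD, n = 2), a 5.32-fold difference. The log2 fold change was 2.41 (SE 0.33), with 2.27 between the number 1 libraries and 2.60 between the number 2 libraries. In the order of all genes by TPM, S100A6 stood at place 432 and 550 in HER2 WT 1 and 2 and at place 112 and 123 in HER2 L755S 1 and 2.

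S100A4, also called metastasin, binds the heavy chain of non-muscle myosin and is known from motile and mesenchymal cells. In GENCODE, whose start of S100A4 lies upstream of the RefSeq window above, the gene starts 13.9 kb from the start of S100A6 (ENSG00000196154, 153543613 to 153550136, minus strand). Its level was 5.83 and 4.93 TPM in HER2 WT 1 and 2 and 23.4 and 19.4 TPM in HER2 L755S 1 and 2. It was counted 56 and 45 times in HER2 WT 1 and 2 and 203 and 189 times in HER2 L755S 1 and 2. The lines did not overlap, and the difference of 2.12 on the log2 scale (SE 0.42, 4.35-fold) exceeded that between the libraries of a line, 0.16 in HER2 WT and 0.09 in HER2 L755S. Within numbers 1 and 2 it was 2.00 and 2.24. S100A6 was far more abundant than S100A4 in every library, with TPM ratios of 54.3 and 43.4 in HER2 WT 1 and 2 and 64.1 and 53.4 in HER2 L755S 1 and 2. The transcripts of S100A4 and S100A3 overlap on the same strand, but S100A3 had only 0 to 2 counts per library.

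S100A14 and S100A16 are adjacent epithelial members of the family. S100A14 (ENSG00000189334, 153614255 to 153616986) stood at 1.07 and 2.16 TPM in HER2 WT 1 and 2 and at 4.89 and 3.22 TPM in HER2 L755S 1 and 2, from 22 to 93 counts per library. All HER2 L755S values were above the HER2 WT values, but the size of the difference depended on the number: the log2 fold change was 1.54 overall (SE 0.53), 2.20 within number 1 and 0.89 within number 2. S100A16 (ENSG00000188643, 153606886 to 153613145) stood at 4.47 and 2.77 TPM in HER2 WT 1 and 2 and at 12.5 and 4.77 TPM in HER2 L755S 1 and 2. Its lowest HER2 L755S value was close to its highest HER2 WT value, and HER2 L755S 1 stood apart. The log2 fold change of S100A16 was 1.36 (SE 0.49), and it was 0.72 without HER2 L755S 1.

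S100A10 is a member that does not respond to calcium. It joins ANXA2 at the membrane, where the complex binds AHNAK and plasminogen activators. S100A10 (ENSG00000197747, 151982915 to 151994390, minus strand) had a level of 39.8 and 44.1 TPM in HER2 WT 1 and 2 and of 15.9 and 19.7 TPM in HER2 L755S 1 and 2. The HER2 L755S libraries were both lower, opposite to S100A6. The log2 fold change was -1.02 (SE 0.36), a 2.03-fold lower level, with -1.25 within number 1 and -0.82 within number 2.

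S100A11, which binds ANXA1 and is abundant in epithelia, was the most abundant S100 transcript in HER2 WT cells. It stood at 862 and 659 TPM in HER2 WT 1 and 2 and at 777 and 595 TPM in HER2 L755S 1 and 2. These values overlapped, and the log2 fold change was 0.01 (SE 0.30), the smallest difference among the 7 tested members. S100A13, which takes part in the release of FGF1 and IL1A, stood at 306 and 327 TPM in HER2 WT 1 and 2 and at 223 and 205 TPM in HER2 L755S 1 and 2. The lines did not overlap, but the log2 fold change of -0.33 in the fit of counts was about as large as its SE of 0.31. In TPM the log2 difference was larger, -0.46 within number 1 and -0.67 within number 2. S100A13 was the one member whose expected counts were not whole, so some of its reads were divided among genes. It overlaps S100A1 on the opposite strand and a non-coding transcript on its own strand, which had 23 to 84 and 14 to 27 counts against 1927 to 2805 for S100A13.

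The myeloid pair S100A8 and S100A9, whose products form calprotectin, was at or near 0. S100A9 had 0 counts in each library, which allows up to 0.117 CPM in the shallowest one, and S100A8 had 1 count in HER2 L755S 1 and 0 elsewhere. S100P, which binds ezrin and lies on chromosome 4, was counted 12 (HER2 WT 1), 3 (HER2 WT 2), 8 (HER2 L755S 1) and 0 (HER2 L755S 2) times. These 3 genes were too low to test, and a difference between the lines was not detectable at this depth.

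**Figure D1:**
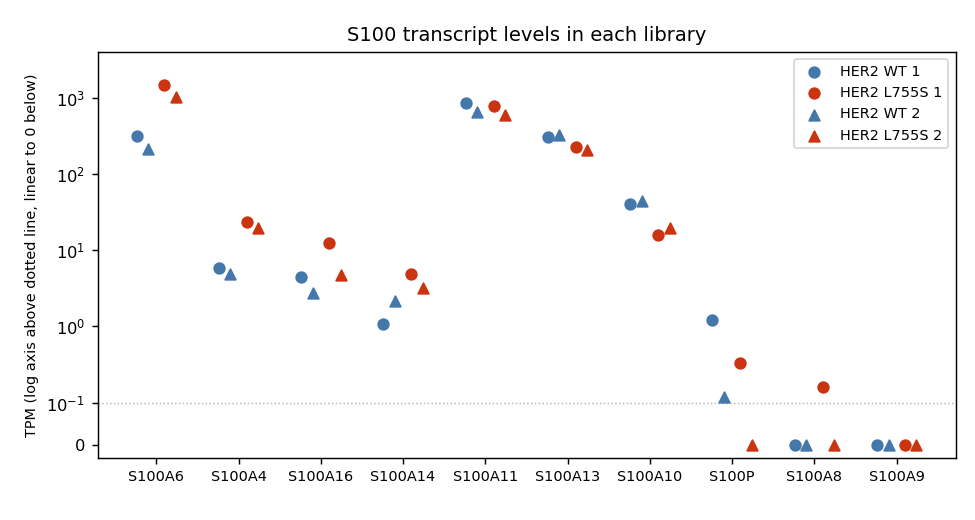
Level of each of the 10 S100 genes in TPM (vertical axis, logarithmic above 0.1 and linear below) in the 4 libraries, with 1 point per library, blue for HER2 WT and red for HER2 L755S, circles for number 1 and triangles for number 2. S100A6 lay at 214 and 317 TPM in HER2 WT and at 1033 and 1498 TPM in HER2 L755S libraries, S100A10 lay lower in both HER2 L755S libraries, and S100A9 was at 0 throughout.

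Of the 7 tested members, 4 were higher in both HER2 L755S libraries than in both HER2 WT libraries (S100A6, S100A4, S100A14 and S100A16), 2 were lower (S100A10 and S100A13) and 1 overlapped (S100A11). Such a lack of overlap was found for 36.2% of the 16538 genes (16.9% higher and 19.3% lower). S100A6 and S100A4 passed an adjusted p of 0.05 in the fit of all genes (edgeR's quasi-likelihood test with Benjamini-Hochberg adjustment), where 1.69% of tested genes passed. Without HER2 WT 2, S100A4 did not pass. In each fit with 1 library left out, here and below, 1 line has a single library, which is assumed to vary like those of the other line. Nothing is read from these counts, because this contrast was in view when the genes were chosen. The median log2 fold change of the 7 members was 1.36, beside 0.00 for all tested genes.

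The makeup of the S100 transcripts differed between the lines. Summed over 21 S100 genes, the level was 1543 and 1257 TPM in HER2 WT 1 and 2 and 2565 and 1883 TPM in HER2 L755S 1 and 2. S100A6 made up 20.5% and 17.0% of that sum in HER2 WT 1 and 2, but 58.4% and 54.9% of it in HER2 L755S 1 and 2. Without S100A6 the sum was 1226 and 1043 TPM in HER2 WT and 1068 and 850 TPM in HER2 L755S libraries, and these ranges overlapped. The higher sum in HER2 L755S cells was thus that of S100A6.

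In HER2 WT cells the order by TPM was S100A11, then S100A6 and S100A13, whose values overlapped, then S100A10, S100A4, S100A16 and S100A14. In HER2 L755S cells it was S100A6, S100A11 and S100A13, then S100A4 and S100A10, whose values overlapped, then S100A16 and S100A14, which overlapped too. The ratio of S100A6 to S100A11 was 0.367 and 0.325 in HER2 WT 1 and 2 and 1.93 and 1.74 in HER2 L755S 1 and 2. That of S100A4 to S100A10 was 0.146 and 0.112 in HER2 WT 1 and 2 and 1.46 and 0.985 in HER2 L755S 1 and 2. Both ratios were several times higher in both HER2 L755S libraries than in either HER2 WT library.

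**Figure D2:**
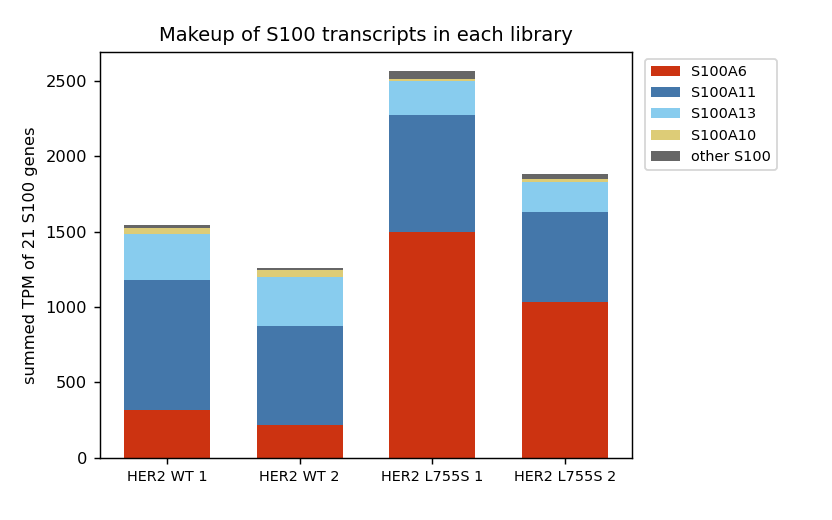
Summed TPM of 21 S100 genes (vertical axis, from 0) in each library, with the parts of S100A6, S100A11, S100A13, S100A10 and all other S100 genes stacked. The S100A6 part was 17.0% and 20.5% of the bar for the HER2 WT libraries, and 54.9% and 58.4% for those of HER2 L755S.

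A comparison of replicate numbers, which the choice of genes did not use, showed how far the members varied between libraries of 1 line. What the number stands for is not given in the labels, but the deposited tables of number 2 are named as merged and those of number 1 are not, and what part this has in the differences between numbers was not tested. In a fit with a term for the line, 0 of 7 members passed between number 2 and number 1 (edgeR, Benjamini-Hochberg adjusted p under 0.05). Of all tested genes 18.2% passed (8.26% higher and 9.94% lower in number 2). Among only 7 genes, 0 is not far from that share, and not passing does not show that a member was equal. DESeq2 also called 0 of the 7 members, and 1 member had an unadjusted p under 0.05 in edgeR. This was S100A16, with a log2 difference of -0.84 (SE 0.33, edgeR adjusted p = 0.084). S100A6 differed by -0.35 (SE 0.20, edgeR adjusted p = 0.23), S100A4 by -0.02 (SE 0.33) and S100A10 by 0.22 (SE 0.24).

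**Figure D3:**
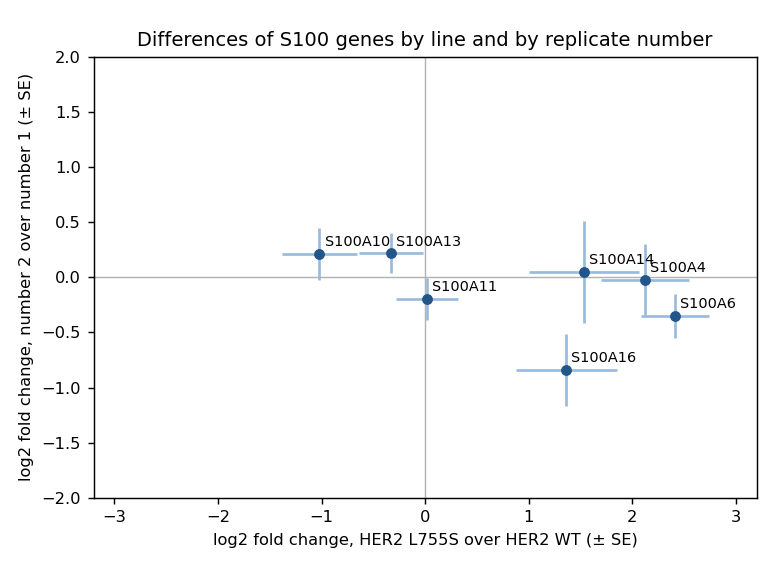
Log2 fold change of the 7 tested members between the lines (horizontal axis, HER2 L755S over HER2 WT) and between replicate numbers (vertical axis, number 2 over number 1), with bars of 1 SE. The points spread from -1.02 to 2.41 along the line axis and from -0.84 to 0.22 along the number axis.

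The average transcript length that RSEM assigned, a readout of which transcript forms were counted, was compared in the same way. For S100A6 it was between 662 and 664 bases in all libraries. For S100A10 it was 719 and 731 bases in the number 1 libraries and 658 and 665 bases in the number 2 libraries. For S100A10 the length thus separated the numbers and not the lines. S100A14 showed the same order, with 1058 bases in both number 1 libraries against 910 and 905 bases, though from few counts. For S100A13 and S100A4 the length separated the lines instead. S100A13 had 578 and 595 bases in HER2 WT 1 and 2 and 601 and 604 bases in HER2 L755S 1 and 2. S100A4 had 610 and 620 bases in HER2 WT and 603 and 607 bases in HER2 L755S libraries. S100A11 and S100A16 separated neither. The share of all genes that separates either way was not counted, and the causes were not tested.

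The positions of the S100 genes on 1q21 are given with their values as a description. Of 17 S100 genes on chromosome 1, 9 were tested. The 5 with the highest log2 fold changes lie in 1 stretch: S100A6, S100A4, S100A2, S100A16 and S100A14 start within 80.7 kb. All are on the minus strand, but so are S100A10, S100A11 and S100A13, so the strand does not set them apart. Of these 5, S100A2, S100A14 and S100A16 did not pass in the fit of all genes. S100A2, which is not among the 10 genes, had a log2 fold change of 1.93 (SE 0.84) from only 2 to 11 counts per library. Only the HER2 L755S libraries brought S100A2 through the count filter. At so low a level a gene could enter the fit only if it was higher there, so nothing is read from S100A2 being among these 5. S100A13, which starts 95.1 kb from S100A6, was lower, and S100A1, at 91.7 kb and on the other strand, overlapped between the lines (0.35, SE 0.62). S100A10 and S100A11 lie about 1.5 Mb away on the other side, past the epidermal genes. Among the 45 epidermal genes of the region that were listed, 40 of 44 found in the tables were at 0 in every library, and the 2 that could be tested, FLG and HRNR, had at most 0.895 CPM and did not pass.

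The other genes around the cluster served as a comparison. Within 1 Mb of the S100 genes of 1q21, 65 other genes were tested, and 0 of them passed in the line contrast (edgeR, Benjamini-Hochberg), beside 1.69% of all tested genes. With DESeq2 1 passed, and 2 had an unadjusted p under 0.05 in edgeR. Their median log2 fold change was -0.19, with -0.09 within number 1 and -0.22 within number 2, and 18 of 65 were positive. The median of all tested chromosome 1 genes other than S100 genes, these 65 included, was also -0.19. Of the 65 genes, 28 were lower in both HER2 L755S libraries, 5 were higher and 32 overlapped, while 19.3% of all tested genes were lower and 16.9% higher in this way. Without overlap were 50.8% of these neighbours, 41.4% of the chromosome 1 genes other than S100 genes (neighbours included) and 36.2% of all tested genes. The lowest p belonged to SEMA6C, a semaphorin gene, with a log2 fold change of -1.47 (SE 0.40, edgeR adjusted p = 0.11), which passed without HER2 WT 2 (adjusted p = 0.042) and with DESeq2 (0.028). The highest value was 1.85 for the antisense transcript FLG-AS1. Its level was 0.247 (HER2 WT 1), 0.379 (HER2 WT 2), 1.09 (HER2 L755S 1) and 1.17 (HER2 L755S 2) CPM. FLG-AS1 was too low in HER2 WT cells to be kept by the count filter on those libraries alone. A higher level in HER2 L755S cells was thus favoured in advance, and nothing is read from its place. The 6 tested genes that lie within 200 kb of S100A4 and S100A6, had a median of -0.04 and a range from -0.30 (ILF2) to 1.06 (RP1-178F15.4, an antisense transcript under 1 CPM that was higher in both HER2 L755S libraries), and 0 of them passed (0 also with an unadjusted p under 0.05).

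**Figure D4:**
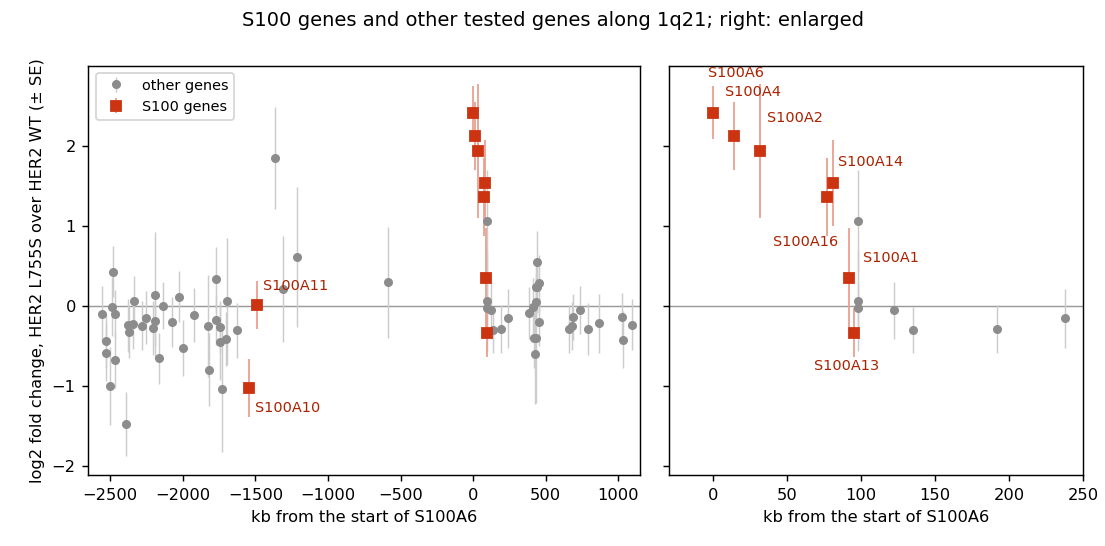
Log2 fold change between the lines (vertical axis, HER2 L755S over HER2 WT, bars of 1 SE) of the tested S100 genes (red squares) and of the other tested genes (grey circles) against the distance of their start from that of S100A6 in kb, with the cluster enlarged on the right. S100A6, S100A4, S100A2, S100A14 and S100A16 lie between 1.36 and 2.41, and S100A2, S100A14 and S100A16 did not pass in the fit of all genes. S100A2 entered the fit only through its counts in the HER2 L755S libraries. The remaining S100 genes lie at 0.35 (S100A1), 0.01 (S100A11), -0.33 (S100A13) and -1.02 (S100A10). Most of the 65 other genes lie near their median of -0.19. This contrast was in view when the S100 genes were chosen.

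Genes of S100 partners and receptors were examined next, in a list that held 39 tested genes. Of these, 1 rose and 1 fell in HER2 L755S cells (edgeR, Benjamini-Hochberg adjusted p under 0.05), beside 0.738% of all tested genes that rose and 0.949% that fell. The list's median log2 fold change was 0.04. AHNAK, a giant scaffold protein held at the membrane by S100A10 and ANXA2, gave 865 (HER2 WT 1), 1717 (HER2 WT 2), 361 (HER2 L755S 1) and 370 (HER2 L755S 2) CPM. It fell by 1.82 on the log2 scale (SE 0.36, edgeR adjusted p = 0.031), lower in 2 of 2 HER2 L755S libraries, with -1.26 within number 1 and -2.21 within number 2. Without HER2 WT 2 the log2 fold change of AHNAK was -1.23 and did not pass (adjusted p = 0.16). AHNAK lies on chromosome 11, where the 59 other tested genes within 1 Mb had a median of -0.52. What part this has in the value of AHNAK was not tested. SYT1, a calcium sensor of vesicle release that forms a complex with S100A13, gave 12.2 (HER2 WT 1), 11.9 (HER2 WT 2), 32.3 (HER2 L755S 1) and 52.7 (HER2 L755S 2) CPM. It rose by 1.82 (SE 0.37, edgeR adjusted p = 0.033), higher in 2 of 2 HER2 L755S libraries, and did not pass without HER2 L755S 2 (adjusted p = 0.11).

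Of the other partner and receptor genes, 6 were fixed by name, and none of those detected passed the test between the lines (edgeR). CACYBP, the partner of S100A6, was on average 154 ± 21.9 CPM for HER2 WT and 167 ± 50.3 CPM for HER2 L755S (SD, n = 2, log2 0.11, SE 0.33). ANXA2, the partner of S100A10, averaged 256 ± 27.9 and 237 ± 4.41 CPM (log2 -0.11, SE 0.29). MYH9, the myosin chain bound by S100A4, averaged 716 ± 23.7 and 569 ± 130 CPM (log2 -0.33, SE 0.30), and EZR, the partner of S100P, 852 ± 113 and 660 ± 59.9 CPM (log2 -0.37, SE 0.29). MYH9 and EZR were lower in both HER2 L755S libraries, while CACYBP and ANXA2 overlapped. The receptor gene AGER stood at 8.87 ± 2.36 and 8.96 ± 1.05 CPM, and TLR4 had 0 counts in every library. That these 5 detected genes did not pass does not show that they were equal.

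ALCAM, an adhesion molecule bound by released S100 proteins, and FGF1, a growth factor released with S100A13, were next by p. Between the replicate numbers ALCAM was higher in number 2 (log2 0.83, edgeR adjusted p = 0.0093), where 8.26% of all tested genes were. Between the lines it had a log2 fold change of 1.52 (SE 0.40, edgeR adjusted p = 0.097). It passed with DESeq2 and without HER2 L755S 1 or HER2 WT 2 (adjusted p = 0.011, 0.0023 and 0.020), and not without HER2 L755S 2 or HER2 WT 1 (0.59 and 0.29). FGF1 had 1 count in each HER2 WT library and 13 and 11 counts in HER2 L755S 1 and 2 (edgeR adjusted p = 0.10). It met the count filter only through the HER2 L755S libraries. A gene this low could be tested only if it was higher there, so nothing is read from its p-value. Of 8 tested annexin genes and of 34 tested genes of other EF-hand proteins, 0 passed in the line contrast (edgeR, Benjamini-Hochberg), beside 1.69% of all tested genes, with medians of -0.14 and -0.02. At an unadjusted p under 0.05 there were 0 annexins and 3 EF-hand genes, beside 1742 of all 16538 genes. The lowest p among the latter was that of PVALB, which encodes the calcium buffer parvalbumin, with 3.40 (HER2 WT 1), 1.45 (HER2 WT 2), 10.8 (HER2 L755S 1) and 8.37 (HER2 L755S 2) CPM (log2 1.98, SE 0.48, edgeR adjusted p = 0.070). PVALB passed with DESeq2 (adjusted p = 0.0037) and without HER2 L755S 1, HER2 L755S 2 or HER2 WT 1 (0.045, 0.0057 and 0.0018), and not without HER2 WT 2 (0.21).

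The genes whose pattern over the 4 libraries was closest to that of S100A6 were found among 11469 other tested genes of at least 5 CPM on average, by the Euclidean distance between log2 CPM values centred on each gene's mean. They were CST9 (distance 0.14), IRX2 (0.17), DMKN (0.22), B3GNT9 (0.30) and TGM3 (0.37). With 4 libraries this measure mostly ranks genes by the size of the difference between the lines, and it is a description. CST9 encodes a cystatin and IRX2 a homeobox factor. DMKN, which encodes the epidermal secreted protein dermokine, gave 44.5 (HER2 WT 1), 28.1 (HER2 WT 2), 208 (HER2 L755S 1) and 154 (HER2 L755S 2) CPM. TGM3, which encodes an epidermal transglutaminase, gave 38.0, 30.4, 211 and 135 CPM in the same order. These 5 genes lie on chromosomes 5, 16, 19 and 20, away from the S100 cluster. By the same measure S100A4 was at a distance of 0.45 from S100A6, S100A14 and S100A16 at 1.30 and 1.31, and S100A10 at 3.52.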

How the data were processed

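The data are RNA-seq gene tables of 4 libraries. The expected counts (estimated counts per gene) and TPM values are those the authors deposited in RSEM format, per the file headers. STAR, edgeR and GRCh38 are listed in the submitters' processing notes. Strand setting and annotation release are not given in the sources used here, and reads from overlapping genes may therefore be mixed. Expected counts were rounded, and genes were kept by filterByExpr. Libraries were scaled by TMM (factors 0.937 to 1.04) and tested with edgeR 4.0.16 in R 4.3.3 (glmQLFit, glmQLFTest, two-sided, adjusted over 16538 genes), by line with no other term and by replicate number with a term for the line. Differences within a number are on the log2 CPM scale with a prior count of 0.5. Alternatives used other scaling, DESeq2 1.42.0, other filters, a replicate block, no mitochondrial genes, and 1 library fewer. The scripts were tried on simulated data, where at this number of libraries false calls exceeded the nominal rate and most 2-fold differences were missed, so a gene that did not pass may still differ. Positions of genes and distances between their starts are from GENCODE 29, while the upstream windows were taken from RefSeq starts, which can differ. Genes were named as members, by fixed partner names, by lowest p (up to 5 per list, fewer where described) or by likeness to S100A6. The members and lists were chosen with earlier results of these data known.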

Additional observations from a re-analysis of the deposited data

Results flagged for a closer look

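S100A11 and S100A1 were singled out because the 2 replicate numbers gave opposite signs. For S100A11 the log2 difference, HER2 L755S minus HER2 WT, was -0.12 in number 1 and 0.17 in number 2. For S100A1, which had 23 to 84 counts per library, it was 0.60 in number 1 and -0.24 in number 2. With 1 library per line and number, the difference between the numbers was not tested. In TPM, S100A11 was lower in HER2 L755S in both numbers (-0.15 in number 2).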

How the results depend on the processing

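The log2 fold change of S100A6 between the lines ranged from 2.19 to 2.69 over 12 fits and that of S100A4 from 2.05 to 2.20, with S100A4 not passing without HER2 WT 2 (adjusted p = 0.051). Of these fits, 4 leave 1 line with a single library, and passing there is no sign of stability. S100A10 ranged from -1.26 to -0.81, S100A14 from 1.19 to 1.98 and S100A16 from 0.72 to 1.80, with the sign kept in the 11 alternatives run, while S100A11 changed sign (-0.13 to 0.19). Within number 2, the log2 difference between the lines was lower in TPM than in CPM for every tested member. It was 2.27 against 2.60 for S100A6, -1.16 against -0.82 for S100A10 and -0.67 against -0.32 for S100A13. Genes passing between the lines numbered 279, against 585 with DESeq2, 759 with no filter and 1743 with a replicate block, and 344 to 542 with 1 library left out. The replicate block takes the pairing from the number in the titles, whose meaning the labels do not give. Deviations of same-numbered libraries from their line means correlated with r = 0.43 over genes. With the block 5 members passed (10.5% of all tested genes did), and the partner genes passing rose from 2 to 4 and the 1q21 neighbours from 0 to 3, all lower. Neighbours passing were 1 with DESeq2 and 1 with no filter, and 0 to 1 with 1 library left out. Partner genes passing were 1 to 3 with 1 library left out. Between numbers, 3010 genes passed, against 1705 with no filter, 1748 without mitochondrial genes, 0 with no term for the line and 0 with any 1 library left out, where the line and the number are mixed because the term for the line was dropped. The split of the 3010 was 1366 higher and 1644 lower, and 833 and 1934 with no scaling. Small differences between numbers changed sign: S100A4 to 0.039 with no term for the line and to 0.010 without mitochondrial genes, and S100A14 to -0.20 with no term for the line and to -0.033 with no scaling. With 1 library left out the ranges were -2.06 to 1.30 for S100A6, -1.48 to 1.36 for S100A4, -0.34 to 0.91 for S100A10, -0.93 to 1.30 for S100A14 and -1.55 to 0.035 for S100A16. The causes were not tested beyond what each alternative leaves out. Depth limits S100A8, S100A9 and S100P, at 0 to 12 counts.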
